A study of Mus musculus with 4 samples.

Results

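The genes described here are 8 transcription factors that are known to hold T cells in a resting or self-renewing state: Tcf7, Lef1, Bach2, Satb1, Foxo1, Id3, Myb and Sox4. They were chosen by name, as 8 of the 32285 genes in the files, and all 8 passed the filter on low counts in each comparison. Their RNA was read across CD4 and CD8 T cells with little or much Ccl5, across Foxp3 cells, and between tumors with and without knockdown of the immune checkpoint protein B7-H3.

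Naive T cells circulate between blood and lymph nodes and keep their effector genes shut. TCF1 (the protein of Tcf7) and LEF1 bind DNA through the same type of domain and keep the naive and stem-like programs, in which a T cell can renew itself and still give rise to effector cells. FOXO1 drives receptors for lymph node homing and survival, BACH2 restrains effector genes, SATB1 organizes chromatin, and ID3 blocks the DNA-binding E proteins. In tumors, CD8 T cells that keep TCF1 are known as the pool from which effector and exhausted cells arise.

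The samples were 4 droplet libraries of CD3-sorted T cells from subcutaneous tumors in wild-type C57BL/6J mice. Tumors of both groups grew from Tsc2-deficient 105K cells, a line from a mouse kidney tumor, so loss of Tsc2 in the tumor cells was common to all of them. The control tumor cells carried the hairpin RNA sh-NC and the knockdown tumor cells the hairpin sh-B7-H3 (1) against Cd276, the gene of B7-H3, with 2 libraries a group. Per the labels each group was a pool of 80 tumors split over 2 lanes, although the study's legends and methods describe the lanes differently, so p-values speak of the spread between these lanes and not of other mice. By the methods for subcutaneous tumors the mice were males injected at 6 weeks of age. No batch or date was given, 1 hairpin stood for the knockdown, and effects of handling and of the knockdown cannot be told apart. The hairpin acts in the tumor cells and not in the sorted T cells. Cd276 had 0 to 2 UMIs (unique molecular identifiers, 1 for each captured RNA molecule) in the kept cells of a library, so it could not check the labels.

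The libraries held 7030 to 12112 called cells and 79224898 to 132820909 RNA UMIs, and 2999 to 6260 cells were kept at a median of 6389 to 8327 UMIs. Pairs of libraries shared 17 to 35 cell barcodes. In each of the classes below Gm42418, a transcript that overlaps ribosomal RNA, took 4727 to 5966 CPM (UMIs of a gene per 1000000 RNA UMIs of the class) in the control libraries and 27775 to 31522 CPM in the knockdown libraries. The median share of mitochondrial UMIs also differed, for example 3.48 to 3.53% against 4.12 to 4.15% in Cd4 Ccl5-low cells. The part of both in the results below was not tested.

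Cells were put into 5 classes without shared cells. Cd4 cells had a Cd4 UMI and none of Cd8a or Cd8b1, Cd8 cells had at least 3 UMIs of Cd8a and Cd8b1 and none of Cd4, and each lineage was split at 20 UMIs of Ccl5, a chemokine of effector and memory T cells. Foxp3 cells were Cd4 cells with a UMI of Foxp3, the defining factor of regulatory T cells, and stood apart from both other Cd4 classes. Classes held 89 to 2198 cells per library. The summed level of the 6 pan-T genes was 4908 to 12120 CPM in the 5 classes against 204 to 495 CPM in myeloid-like cells. The 4 regulatory T genes summed to 1768 to 2241 CPM in Foxp3 cells and to at most 374 CPM elsewhere. Foxp3, which sets the class, was among these 4, so part of the contrast was fixed by the gate. The 7 myeloid genes summed to at most 319 CPM in the T cell classes and to 49830 to 64141 CPM in myeloid-like cells. Those cells were set by at least 10 UMIs of C1qa, C1qb, C1qc and Lyz2 and at most 1 UMI of Cd3d, Cd3e and Cd3g. As these genes are in the myeloid and pan-T lists, the gate also fixed part of the contrasts with myeloid-like cells. Ccl5-high cells made up 7.42% ± 1.22 (SD, n = 2) of the Cd4 gate in the control libraries and 41.7% ± 1.13 in the knockdown libraries, and 17.0% ± 2.57 against 61.0% ± 2.06 of the Cd8 gate. Foxp3 cells were 10.0% ± 1.02 and 11.4% ± 1.41 of the Cd4 gate. In sums over cells, fewer cells of a type and less RNA per cell cannot be told apart.

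All 8 factors were lower in Ccl5-high than in Ccl5-low cells of both lineages (edgeR quasi-likelihood test with the library as a block). A gene was called when its p, adjusted by Benjamini and Hochberg over all genes tested, was under 0.05 and the log2 difference was at least 1. Of all genes tested, 11.2% were called lower in Cd4 and 8.33% in Cd8 Ccl5-high cells. The median log2 difference of the 8 was -4.06 in Cd4 and -3.07 in Cd8 cells, against -0.02 and -0.00 over all genes tested.

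Tcf7 (ENSMUSG00000000782) lies on chromosome 11 of mm10, from 52252371 to 52283014 on the minus strand. In control libraries 1 and 2 it stood at 356 and 366 CPM in Cd4 Ccl5-low cells and at 20.3 and 8.67 CPM in Cd4 Ccl5-high cells. In knockdown libraries 1 and 2 the same classes held 266 and 265 CPM against 5.24 and 8.20 CPM. The classes were apart in each library, and the log2 difference was -5.30 ± 0.11 (SE, adjusted p = 6.3e-34). In Cd8 cells Tcf7 was at 269, 265, 209.6 and 199 CPM in the Ccl5-low class and at 61.6, 52.9, 15.4 and 17.6 CPM in the Ccl5-high class, in the order control 1, control 2, knockdown 1, knockdown 2, which is used for all values below. The log2 difference there was -3.28 ± 0.06 (adjusted p = 1.1e-35), and the knockdown libraries held the lowest values.

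Lef1 (ENSMUSG00000027985), the close relative of Tcf7, lies on chromosome 3 (131110471 to 131224356, plus strand). It was at 359, 352, 286 and 276 CPM in Cd4 Ccl5-low cells and at 27.1, 26.0, 12.9 and 12.9 CPM in Cd4 Ccl5-high cells, a log2 difference of -4.42 ± 0.09. In Cd8 cells the values were 253, 252, 203 and 208 CPM against 51.4, 46.0, 21.4 and 20.3 CPM (-3.20 ± 0.06). Satb1 (ENSMUSG00000023927, chromosome 17, 51736187 to 51833290, minus strand) had 303, 304, 249.7 and 229 CPM in Cd4 Ccl5-low cells and 9.77 to 11.2 CPM in Cd4 Ccl5-high cells (-5.02 ± 0.11). In Cd8 Ccl5-low cells it had 199, 192, 171 and 171 CPM and in Cd8 Ccl5-high cells 55.4, 41.3, 15.0 and 17.9 CPM (-3.05 ± 0.06). For both genes no Ccl5-high value reached the lowest Ccl5-low value of its lineage.

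Id3 (ENSMUSG00000007872, chromosome 4, 136143497 to 136145755, plus strand), which blocks E proteins, had 91.6, 109, 99.1 and 131 CPM in Cd4 Ccl5-low cells. In Cd4 Ccl5-high cells it had 1.24 to 5.24 CPM, from 1 to 11 UMIs per library, with a log2 difference of -5.58 ± 0.24. In Cd8 cells the classes stood at 90.2, 84.8, 117 and 96.0 CPM and at 25.1, 24.2, 8.16 and 8.95 CPM (-3.08 ± 0.11). Bach2 (ENSMUSG00000040270, chromosome 4, 32238804 to 32586108, plus strand) fell by 3.69 in Cd4 and by 2.86 in Cd8 cells on the log2 scale, from 50.03 to 55.7 CPM and 26.2 to 35.4 CPM in the Ccl5-low classes. Its control and knockdown means in Ccl5-high cells were 3.89 and 6.74 CPM in Cd4 and 7.29 and 4.07 CPM in Cd8 cells. Myeloid-like cells had 4.87 ± 6.88 and 1.86 ± 2.63 CPM (SD, n = 2), so a remaining level of Bach2 could not be told from background. Sox4, which binds DNA through the same type of domain as TCF1 (ENSMUSG00000076431, chromosome 13, 28948919 to 28953713, minus strand), fell by 3.59 and 4.09, but had only 0 to 4 UMIs per library in either Ccl5-high class.

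Foxo1 and Myb differed least between the classes. Foxo1 (ENSMUSG00000044167, chromosome 3, 52268336 to 52353221, plus strand) was at 79.1, 86.9, 76.2 and 78.7 CPM in Cd4 Ccl5-low and at 33.9, 17.3, 24.3 and 23.8 CPM in Cd4 Ccl5-high cells (-2.03 ± 0.12). In Cd8 cells it was at 58.8, 57.6, 59.9 and 55.1 CPM and at 36.4, 34.8, 24.3 and 25.9 CPM (-1.31 ± 0.08). Myb (ENSMUSG00000019982, chromosome 10, 21124935 to 21160984, minus strand), needed for stem-like memory CD8 cells, was at 1.93 to 7.36 CPM in the Ccl5-low classes and at 0.882 to 4.09 CPM in the Ccl5-high classes. Its log2 differences were -1.91 ± 0.54 (adjusted p = 0.0026) in Cd4 and -2.03 ± 0.32 (adjusted p = 5.9e-07) in Cd8 cells. The Cd4 call of Myb rested on knockdown library 1, without which the adjusted p was 0.079.

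The low values in Ccl5-high cells have to be read beside the background. Droplet solution carries free RNA. Barcodes with at most 100 UMIs held Tcf7 at 293, 282, 230 and 209 CPM. Lef1 was at 247, 237, 193 and 204 CPM and Satb1 at 298, 264, 213 and 225 CPM in them, each lower in both knockdown libraries. Myeloid-like cells (30 to 111 per library), which should lack Tcf7, had 14.1 to 19.5 CPM of it, from 2 to 5 UMIs per library. The Tcf7 levels of Cd4 Ccl5-high cells and of knockdown Cd8 Ccl5-high cells were of that size. Over these whole classes a remaining level of Tcf7 could therefore not be told from background. Knockdown Cd8 cells with 20 to 49 Ccl5 UMIs had a higher mean, 52.0 CPM. Myeloid-like cells were shallower, at median depths of 1784 to 2996 UMIs against 5951 to 6064 UMIs in Cd8 Ccl5-high cells. The part of depth in this reference was not tested. The control Cd8 Ccl5-high cells, with 52.9 and 61.6 CPM, were above all 4 myeloid-like values. The same held for Lef1, Satb1 and Id3: myeloid-like cells had 7.43 to 23.6, 0 to 22.3 and 0 to 18.6 CPM of them, from 0 to 6 UMIs per library. The knockdown Cd8 Ccl5-high values of all 3 genes and their Cd4 Ccl5-high values, except Lef1 in the control libraries, lay within those ranges, while the control Cd8 Ccl5-high values lay above them.

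Foxp3 cells held intermediate levels. Of the 8 factors, 5 were called lower than in Cd4 Ccl5-low cells (5.09% of all genes were). Tcf7 was at 128, 97.4, 57.2 and 51.3 CPM, with a log2 difference of -2.35 ± 0.09 (adjusted p = 5.0e-25). Lef1 (-1.84 ± 0.07), Satb1 (-1.76 ± 0.08), Bach2 (-1.45 ± 0.15) and Sox4 (-2.20 ± 0.36) were also lower. The Sox4 means in Foxp3 cells were 5.92 CPM in control and 2.55 CPM in knockdown libraries. They stood beside 4.67 ± 6.61 and 13.6 ± 14.0 CPM in myeloid-like cells (SD, n = 2), so they could not be told from background. Foxo1 (-0.57 ± 0.11) and Id3 (-0.88 ± 0.14) passed the adjusted p but not the fold limit. Myb was called higher (1.02 ± 0.36, adjusted p = 0.023, with 8.98% of all genes called higher), but its 12.4, 6.68, 7.15 and 24.8 CPM rested on 4 to 15 UMIs per library, and the difference was 0.09 (adjusted p = 0.94) without knockdown library 2 and 0.67 (adjusted p = 0.26) without control library 1. Nor was it called by DESeq2 (adjusted p = 0.073), with lineage by antibody tags (0.13, adjusted p = 0.76) or with Foxp3 cells left in the Cd4 classes (0.70, adjusted p = 0.093), and at 0.83 to 0.99 it fell short of the fold limit under 7 other settings.

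The order of the classes differed from gene to gene. Means of the control libraries fell from Cd4 Ccl5-low over Cd8 Ccl5-low and Foxp3 to Cd8 Ccl5-high and Cd4 Ccl5-high cells for Tcf7, Lef1, Satb1 and Bach2, without overlap of neighboring classes. For Foxo1 the Foxp3 cells (78.3 and 79.5 CPM) overlapped the Cd4 Ccl5-low cells, and for Id3 the Foxp3 cells (76.4 and 126 CPM) overlapped both Ccl5-low classes. Sox4 set the lineages apart: it had 13.2 to 14.7 CPM in Cd4 and 3.37 to 5.21 CPM in Cd8 Ccl5-low cells. Sox4 was the only member called between these classes (-1.42 ± 0.17, adjusted p = 3.6e-09, with 4.55% of all genes called lower in the Cd8 class). Myeloid-like cells had 4.67 ± 6.61 CPM of Sox4 in control and 13.6 ± 14.0 CPM in knockdown libraries (SD, n = 2). Free RNA held Sox4 at 6.87, 7.96, 18.6 and 10.4 CPM. A level of Sox4 in the Cd8 class could therefore not be told from background, and the part of background in the Cd4 level was not tested. By the adjusted p alone 6 of 8 passed there (28.8% of all genes). Tcf7 differed by -0.22 ± 0.04 and Id3 by 0.01 ± 0.07.

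**Figure D1:**
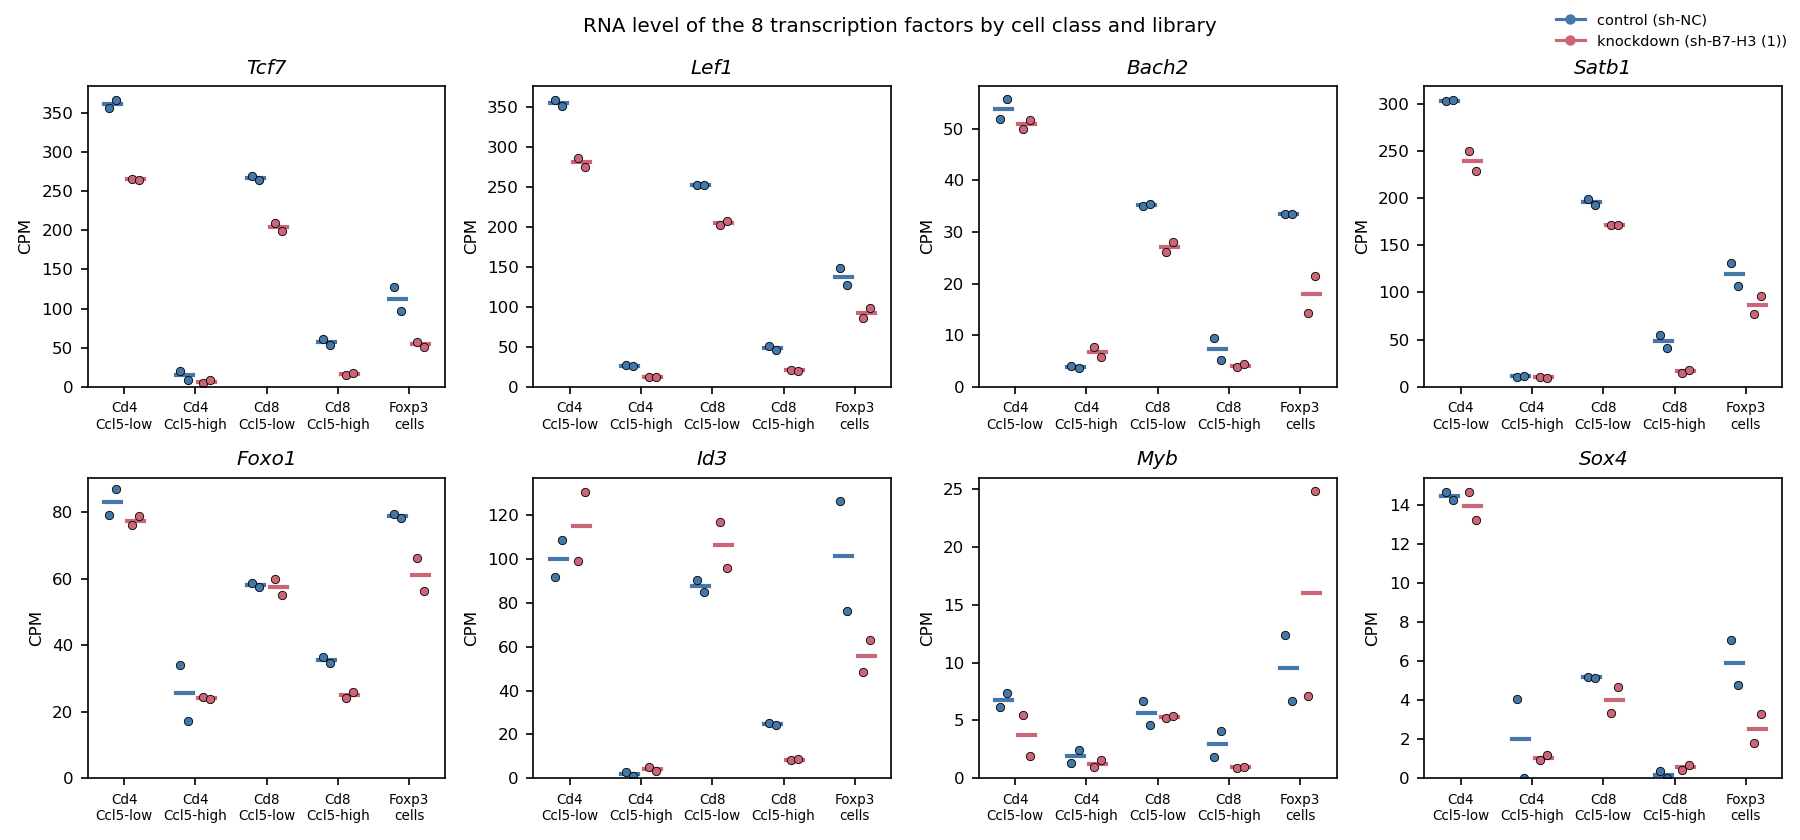
RNA level in CPM (linear axes from 0) of each factor in the 5 cell classes. Points are libraries, bars are means of the 2 control (blue) or 2 knockdown (red) libraries. Levels were high in the Ccl5-low classes and low in the Ccl5-high classes, and in Cd8 Ccl5-high cells Tcf7 was at 52.9 and 61.6 CPM in the control and at 15.4 and 17.6 CPM in the knockdown libraries.

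Tcf7 declined gradually with Ccl5 in Cd8 cells, across the limit of 20 Ccl5 UMIs, and in a step below that limit in knockdown Cd4 cells. For this description, chosen after the data were seen and not tested, cells were binned at 0, 1 to 2, 3 to 9, 10 to 19, 20 to 49, 50 to 99 and at least 100 Ccl5 UMIs. In control Cd8 cells the mean Tcf7 level over the bins was 270.3, 269.8, 236, 202, 122, 52.0 and 16.1 CPM. In knockdown Cd8 cells it was 203, 212, 215, 109, 52.0, 14.1 and 9.28 CPM. Both declined over the middle bins, and the knockdown was lower in each bin. In knockdown Cd4 cells Tcf7 held at 275, 285 and 258 CPM up to 9 Ccl5 UMIs and was at 4.84 to 8.73 CPM in all bins from 10 UMIs on. Control Cd4 cells had 22 cells with 3 to 9 and 7 cells with 10 to 19 Ccl5 UMIs, too few to place the step.

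Lef1 and Satb1 showed similar shapes in Cd8 cells. With 3 to 9 Ccl5 UMIs, however, Lef1 was not lower in the knockdown (193 CPM, against 191 CPM in the control). Lef1 went from 259 CPM at no Ccl5 UMI over 81.3 CPM at 20 to 49 UMIs to 30.6 CPM at 100 or more in the control libraries, and from 207 over 40.3 to 15.0 CPM in the knockdown libraries. Satb1 went from 195 over 95.5 to 14.3 CPM in the control and from 181 over 37.0 to 10.6 CPM in the knockdown libraries. Id3 was still at 134 CPM in control Cd8 cells with 10 to 19 Ccl5 UMIs, where the knockdown cells held 49.1 CPM. At 100 or more UMIs it was at 2.50 CPM in the control and 5.30 CPM in the knockdown libraries. Foxo1 declined later, with 57.1 CPM in control and 33.6 CPM in knockdown Cd8 cells at 20 to 49 UMIs and 22.2 and 22.6 CPM at 100 or more.

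**Figure D2:**
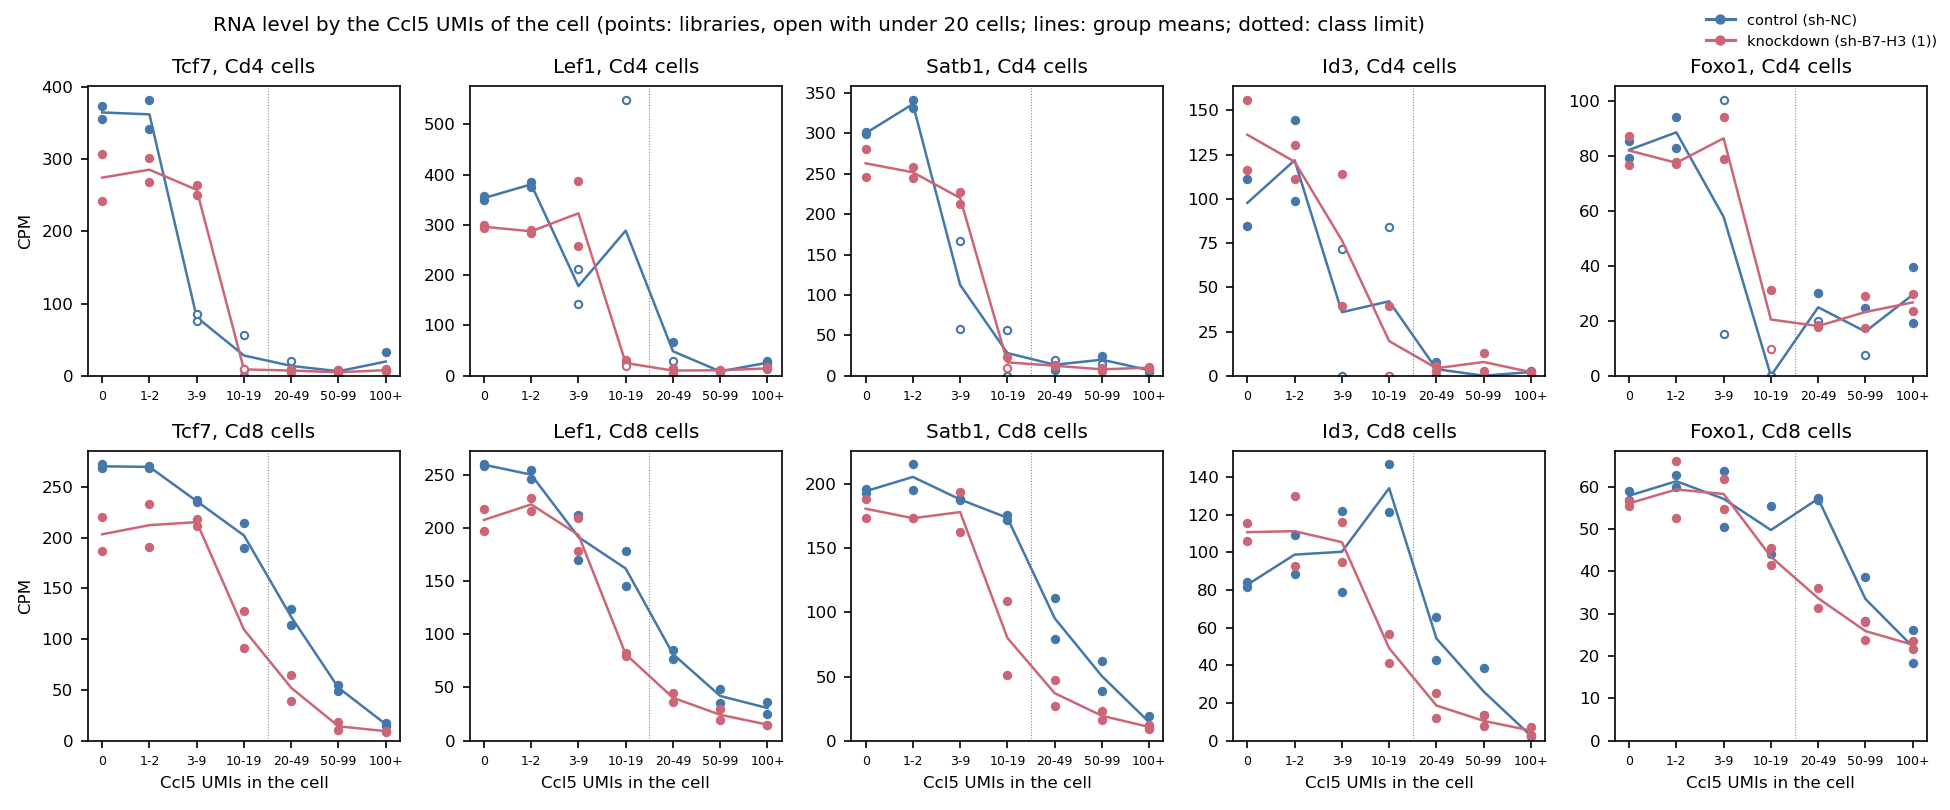
Level in CPM of 5 factors by the Ccl5 UMIs of the cell, Cd4 cells above and Cd8 cells below. Points are libraries (open with under 20 cells), lines are means of the control (blue) and knockdown (red) libraries, and the dotted line is the class limit of 20 UMIs. Tcf7 of knockdown Cd4 cells dropped from 258 CPM at 3 to 9 UMIs to 8.73 CPM at 10 to 19 UMIs, whereas in Cd8 cells the decline ran over several bins.

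The comparison of knockdown with control tumors asked whether the T cells differ when the tumor cells make less B7-H3. Over all cells of a gate, each of the 8 factors was lower in the knockdown libraries at an adjusted p under 0.05 in both lineages (18.6% of all genes were lower by that rule in Cd4 and 21.5% in Cd8 cells). With the fold limit 3 of 8 were called lower in Cd4 and 5 of 8 in Cd8 cells, against 2.10% and 2.04% of all genes. Tcf7 had 317, 316, 129 and 139 CPM in Cd4 cells (log2 fold change -1.33 ± 0.05, adjusted p = 6.6e-17) and 245, 235, 105 and 107 CPM in Cd8 cells (-1.27 ± 0.04, adjusted p = 2.9e-23). The groups did not overlap. Lef1 (-1.18 ± 0.05 and -1.14 ± 0.04) and Satb1 (-1.18 ± 0.05 and -1.05 ± 0.05) were called in both lineages. Bach2 (-1.14 ± 0.09) and Sox4 (-1.08 ± 0.24) were called in Cd8 cells. Sox4 was at 4.64, 4.41, 1.79 and 2.65 CPM there, below its lowest level in free RNA, 6.87 CPM. The part of that background in its fold was not tested. Foxo1 fell by 0.65 and 0.54 and Id3 by 0.66 and 0.63, short of the fold limit. Without knockdown library 1 the Cd8 count was 3 of 8, with Satb1 at -0.9991 and Sox4 at -0.86.

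These differences were smaller at equal shares of the classes. As a description with no test, the class levels of the knockdown libraries were weighted by the mean class shares of RNA UMIs in the control libraries. By UMIs, Ccl5-high cells made up 6.45% of the Cd4 gate in control and 42.1% in knockdown libraries, and 12.9% and 52.3% of the Cd8 gate. The log2 ratio of mean CPM for Tcf7 then moved from -1.24 to -0.46 in the Cd4 gate and from -1.18 to -0.41 in the Cd8 gate. For Lef1 it moved from -1.09 to -0.35 and from -1.06 to -0.32, and for Satb1 from -1.09 to -0.35 and from -0.97 to -0.22. Bach2 went to -0.11 in Cd4 and -0.39 in Cd8 cells, and Foxo1 to -0.12 and -0.05. Id3 changed sign, from -0.59 to 0.13 and from -0.53 to 0.24. With the shares of the knockdown libraries for both groups the Tcf7 ratios were -0.49 and -0.57.

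**Figure D3:**
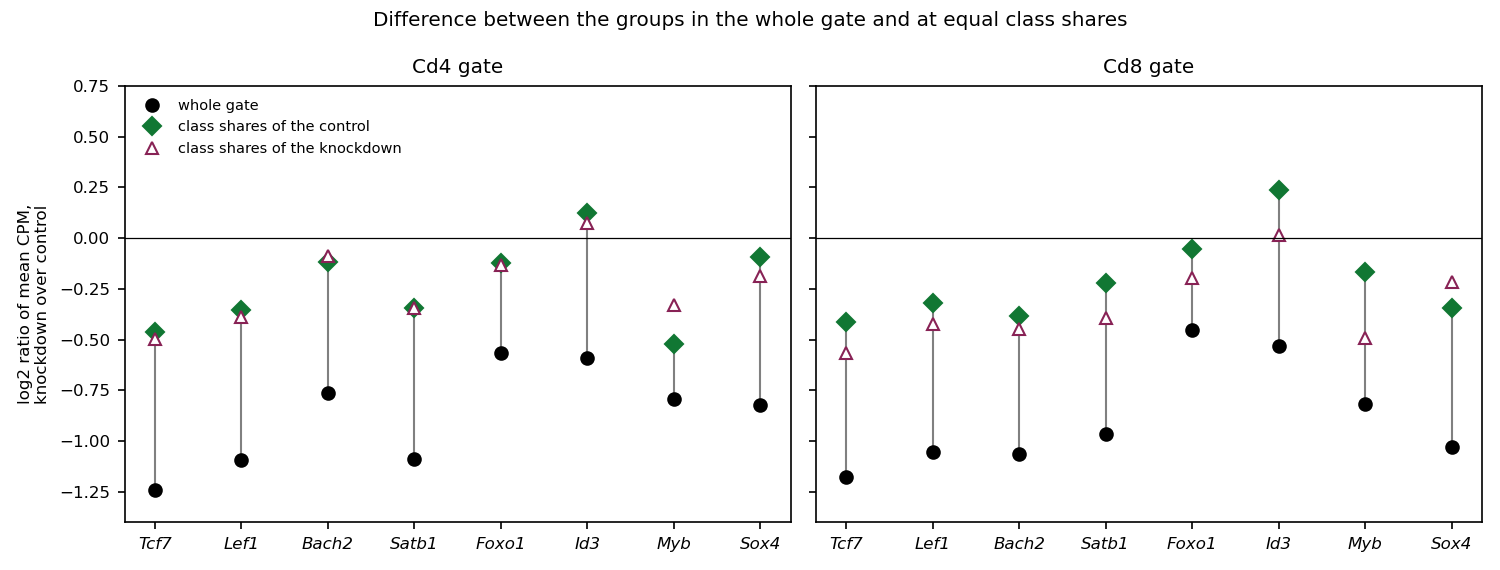
Log2 ratio of mean CPM, knockdown over control, for each factor in the Cd4 gate (left) and Cd8 gate (right). Circles are the whole gates, diamonds use the class shares of RNA UMIs of the control and triangles those of the knockdown libraries. At equal shares the ratios were nearer to 0 than in the whole gates, and Id3 lay above 0.

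Within Ccl5-low cells the differences were small. In Cd4 Ccl5-low cells 0 of 8 factors were called with the fold limit (2.21% of all genes), and 0 of 8 by DESeq2. An unadjusted p under 0.05 was found for 5 of 8, and for 2069 of 10698 genes. By the adjusted p alone 3 of 8 passed (7.48% of all genes): Tcf7 (-0.43 ± 0.06, adjusted p = 4.8e-07), Lef1 (-0.33 ± 0.05) and Satb1 (-0.34 ± 0.06). In Cd8 Ccl5-low cells 0 of 8 were called (1.22% of all genes), and DESeq2 also called 0 of 8. There 5 of 8 had an unadjusted p under 0.05 (1887 of 10698 genes). By the adjusted p alone 3 of 8 passed there (5.80% of all genes), with Tcf7 (-0.33 ± 0.05, adjusted p = 2.0e-05) and Lef1 (-0.24 ± 0.05) lower and Id3 higher (0.32 ± 0.09, adjusted p = 0.023). Effector RNA also differed in these classes. The 5 effector genes other than Ccl5 summed to 105 to 122 CPM in control and 709 to 918 CPM in knockdown Cd4 Ccl5-low cells, and to 572 to 586 and 726 to 736 CPM in the Cd8 class. Free RNA held Ccl5 at 1212 and 1417 CPM in the control and at 4279 and 4741 CPM in the knockdown libraries. Cd4 Ccl5-low cells had 27.2 and 28.5 CPM of Ccl5 in the control and 277 and 301 CPM in the knockdown libraries. Cd8 Ccl5-low cells had 60.5 and 76.0 CPM in the control and at least 223 CPM in the knockdown libraries. Free RNA of Tcf7, Lef1, Satb1 and Id3 was lower in both knockdown libraries than in either control library. The part of the background in the differences was not tested. When only cells with at most 2 Ccl5 UMIs were kept, Tcf7 was at -0.31 in both lineages (adjusted p = 0.00095 in Cd4 and 0.00028 in Cd8). Id3 was then at 0.42 in both (adjusted p = 0.018 and 0.0025), while Satb1 in Cd4 cells (-0.20, adjusted p = 0.071) and Lef1 in Cd8 cells (-0.17, adjusted p = 0.056) no longer passed.

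In Cd8 Ccl5-high cells 4 of 8 factors were called lower in the knockdown libraries, against 1.05% of all genes. Tcf7 fell by 1.74 ± 0.14 on the log2 scale (adjusted p = 6.2e-12), from 61.6 and 52.9 CPM to 15.4 and 17.6 CPM. Satb1 fell by 1.49 ± 0.15 (adjusted p = 8.1e-10), Id3 by 1.47 ± 0.27 (adjusted p = 0.00013) and Lef1 by 1.19 ± 0.13 (adjusted p = 3.9e-09). The knockdown levels of these 4 genes were of the size found in myeloid-like cells, and the part of that background in the folds was not tested. Foxo1 was at -0.46 ± 0.14 (adjusted p = 0.024), Bach2 at -0.77 ± 0.30 (adjusted p = 0.12) and Myb at -1.58 ± 0.64 (adjusted p = 0.13). Sox4 had 1, 0, 2 and 4 UMIs, too few for a fold. Id3 was not called with cells thinned to 2000 UMIs (-0.75, adjusted p = 0.57) or with the Ccl5 limit set per 7500 UMIs (-1.04, adjusted p = 0.0503), and Lef1 and Id3 fell short of the fold limit without removal of doublets, at -0.93 and -0.91. Bach2 was called without control library 2 (-1.17, adjusted p = 0.046) and with no upper limit on genes (-1.12, adjusted p = 0.0016). Myb was called under 4 alternatives, at -1.80 to -2.11 (adjusted p = 0.0020 to 0.041).

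On the log2 scale the difference was also larger in Ccl5-high than in Ccl5-low Cd8 cells when tested itself. In CPM the drop was larger in Ccl5-low cells for Tcf7, with means of 267 and 204 CPM against 57.2 and 16.5 CPM in Ccl5-high cells. As an interaction 3 of 8 factors were called lower (1.01% of all genes): Tcf7 (-1.404 ± 0.15, adjusted p = 2.0e-08), Satb1 (-1.36 ± 0.16, adjusted p = 5.7e-08) and Id3 (-1.79 ± 0.28, adjusted p = 3.2e-05). Lef1 had -0.95 ± 0.14 (adjusted p = 5.5e-06), so 4 of 8 passed by the adjusted p alone (2.05% of all genes). Without doublet removal Id3 alone was called (-1.24), with Tcf7 at -0.81 (adjusted p = 4.8e-06) and Satb1 at -0.84 (adjusted p = 9.3e-06) short of the fold limit. With no upper limit on genes 5 were called, Lef1 (-1.33) and Myb (-2.59) among them. The Cd8 Ccl5-high cells of the knockdown also had more Ccl5: at least 100 Ccl5 UMIs were found in 916 of them (of 715 and 924 cells per library), against 350 of the control cells (of 393 and 426). Their 5 effector genes other than Ccl5, which sets the class, summed to 6860 to 7166 CPM against 5816 to 6116 CPM. In cells with 20 to 49 Ccl5 UMIs Tcf7 was at 130 and 114 CPM in the control and at 38.9 and 65.1 CPM in the knockdown libraries, and at 50 to 99 UMIs at 55.1 and 48.95 CPM against 18.0 and 10.2 CPM. Within these bins the groups did not overlap for Tcf7. Id3 was at 65.6 and 43.0 CPM against 11.98 and 25.3 CPM at 20 to 49 UMIs, but at 2.62 and 2.38 CPM against 7.47 and 3.13 CPM at 100 or more, where the knockdown libraries were higher.

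In Cd4 Ccl5-high cells 0 of 8 factors were called (0.757% of all genes), and DESeq2 called 0 of 8. There 2 of 8 had an unadjusted p under 0.05 (1391 of 10698 genes). Lef1 was at -0.95 ± 0.28 (adjusted p = 0.057) and Tcf7 at -0.96 ± 0.43 (adjusted p = 0.32), from 7 to 21 Tcf7 UMIs per library. Both were called with no upper limit on genes (Tcf7 at -1.63, adjusted p = 0.0018, and Lef1 at -1.26, adjusted p = 0.0011) and with lineage by antibody tags (-1.21, adjusted p = 0.0068, and -1.15, adjusted p = 0.0012), and Lef1 also at a Ccl5 limit of 10 (-1.04, adjusted p = 0.019). The interaction with the Ccl5 class called 0 of 8 in Cd4 cells (1.60% of all genes). An unadjusted p under 0.05 was found for 1 of 8 (1149 of 10698 genes). The knockdown effect also differed by 0 called factors between Cd8 and Cd4 Ccl5-low cells (0.243% of all genes). Again 1 of 8 had an unadjusted p under 0.05 (695 of 10698 genes). DESeq2 called 0 of 8 in both.

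In Foxp3 cells Tcf7 alone was called lower in the knockdown libraries (1 of 8, with 0.140% of all genes called lower), from 128 and 97.4 CPM to 57.2 and 51.3 CPM. The log2 fold change was -1.03 ± 0.21 (adjusted p = 0.0021). It was not called without control library 1 (-0.78, adjusted p = 0.059) or without knockdown library 1 (-1.10, adjusted p = 0.078) or 2 (-0.96, adjusted p = 0.12), and without control library 2 Id3 was called beside it. It was also not called with cells thinned (-1.15, adjusted p = 0.19), and fell short of the fold limit, at -0.74 to -0.85, without doublet removal, with the top 10% of doublet scores removed, with no upper limit on genes, at up to 10% mitochondrial UMIs and with lineage by tags. By the adjusted p alone 2 of 8 passed (1.94% of all genes), as Lef1 was at -0.54 ± 0.15 (adjusted p = 0.049). Id3 was at -0.83 ± 0.27 (adjusted p = 0.11) and Satb1 at -0.43 ± 0.18 (adjusted p = 0.28). The 5 effector genes other than Ccl5 summed to 416 to 649 CPM in control and 1577 to 1837 CPM in knockdown Foxp3 cells. The effect did not differ from that in Cd4 Ccl5-low cells by a call. As an interaction 0 of 8 factors were called (0.374% of all genes), and 0 of 8 by DESeq2. An unadjusted p under 0.05 was found for 4 of 8 (853 of 10698 genes).

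**Figure D4:**
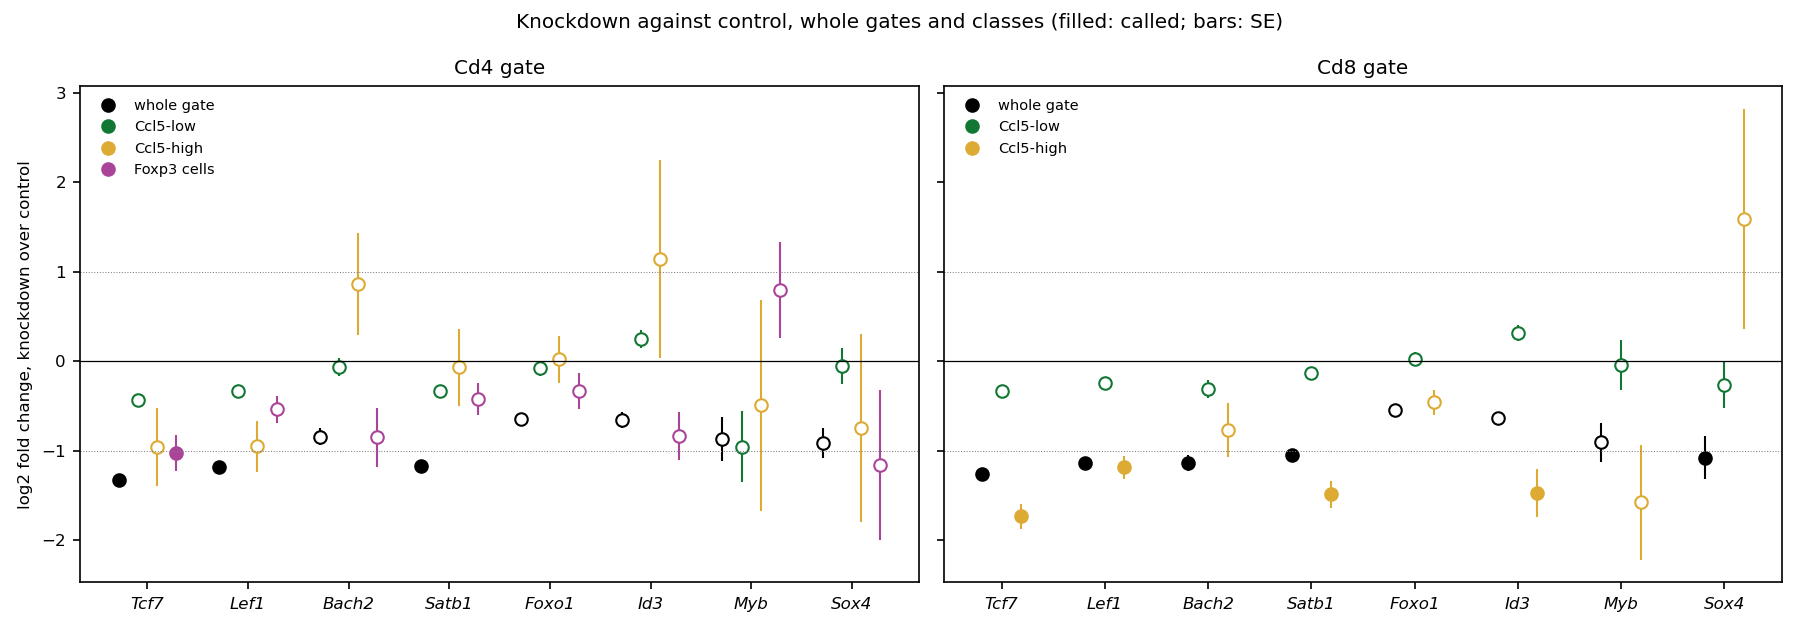
Log2 fold change of knockdown over control for each factor in the whole gates and in the classes of the Cd4 gate (left) and Cd8 gate (right). Points are estimates, filled where called, bars are SE, and dotted lines mark the fold limit. In the Cd8 gate the Ccl5-high class (yellow) lay below the Ccl5-low class (green) for Tcf7, Lef1, Satb1 and Id3. The point of Sox4 in that class rests on 0 to 4 UMIs per library.

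Shares of cells with a UMI were compared with each cell thinned to 2000 UMIs. A Tcf7 UMI was found in 48.6% ± 2.18 (SD, n = 2) of control and 36.5% ± 2.60 of knockdown Cd4 Ccl5-low cells, and in 39.3% ± 0.10 and 32.5% ± 1.36 of Cd8 Ccl5-low cells. In Foxp3 cells the shares were 16.5% ± 1.25 and 6.597% ± 0.21, and in Cd8 Ccl5-high cells 6.45% ± 2.46 and 1.96% ± 0.004. Without thinning the 4 pairs of shares were 85.7% ± 2.04 and 66.7% ± 1.28, 86.3% ± 1.496 and 75.97% ± 0.88, 32.9% ± 10.0 and 18.1% ± 6.21, and 17.3% ± 1.501 and 6.63% ± 0.27 in the same order. Thinning left out 0 to 19 shallower cells per library in the 5 T cell classes and 14 to 52 among myeloid-like cells. Thinned to 1000 UMIs, the knockdown minus control difference went from -9.94 to -4.26 percentage points in Foxp3 cells and from -4.49 to -1.63 in Cd8 Ccl5-high cells. The groups did not overlap in these 4 classes, but 2 against 2 libraries cannot give a two-sided exact permutation p below 0.3333, the value found for each. Myeloid-like cells, at median depths of 1784 to 2996 UMIs against 5951 to 6064 UMIs in Cd8 Ccl5-high cells, had shares of 3.13% ± 4.42 and 4.64% ± 3.03. These rested on 1 of 16, 0 of 15, 4 of 59 and 1 of 40 cells, so the background share is known only roughly, with an exact 95% interval of 1.88% to 16.5% for its highest value, 6.78%. The share in knockdown Cd8 Ccl5-high cells and the 0.87% to 3.62% in Cd4 Ccl5-high cells were of that size. Of the control Cd8 Ccl5-high shares 8.18% lay above and 4.71% below that highest value. The knockdown Foxp3 shares (6.74% and 6.45%) lay below it, although their Tcf7 levels of 57.2 and 51.3 CPM were above the 14.1 to 19.5 CPM of myeloid-like cells.

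Cd8 Ccl5-high cells with and without a Tcf7 UMI differed in some genes of resting cells and of effector cells. After thinning there were 32, 20, 14 and 18 cells with the UMI per library. As the knockdown shares and 1 of the 2 control shares were no higher than the highest myeloid-like share, some of these UMIs may be background, and their number was not tested. As a description with no test, means over the 4 libraries were compared. With Tcf7, Satb1 was 6.08 times, the survival receptor gene Il7r 5.19 times, the quiescence factor gene Klf2 3.77 times and Lef1 2.51 times as high, each in 4 of 4 libraries. Satb1 was at 109 and 175 CPM with and 25.1 and 22.2 CPM without the UMI in the control libraries, and at 71.4 and 55.6 against 7.13 and 13.3 CPM in the knockdown libraries, from 2 to 7 UMIs in the cells with Tcf7. Of the 14 other quiescence factors 2 (Klf2 and Foxp1) were higher in 4 of 4 libraries and 5 in 0 of 4, namely Ets1 (0.499), Bcl11b (0.632), Btg1 (0.725), Zfp36l2 (0.745) and Slfn2 (0.851), and Tob1 and Klf4 had no UMI in the cells with Tcf7. Their median ratio was 0.793. Among stem-like T cell markers, Ccr7 was at 4.17 (higher in 3 of 4), Slamf6 at 2.65 (3 of 4) and Cd28 at 1.11 (2 of 4). Cxcr5 was at 1.12 (1 of 4, from 1 UMI) and Xcl1 at 0.322 (0 of 4, from 4 UMIs). Bcl6 had no UMI in the cells with Tcf7. Of the other members Id3 was at 6.71 (higher in 3 of 4, from 8 UMIs) and Bach2 at 3.33 (higher in 2 of 4, from 4 UMIs). Foxo1 was at 0.683 (higher in 1 of 4), and Myb and Sox4 had no UMI in the cells with Tcf7. Ly6c2, a surface gene of memory and effector CD8 cells, was 3.22 times as high. The protease gene Gzmb was at 70.3 ± 38.9 against 408 ± 112 CPM (SD, n = 4), a ratio of 0.172. The inhibitory receptor genes Lag3 (0.407) and Pdcd1 (0.544) and Ccl5 itself (0.661) were lower in 4 of 4 libraries, Gzmk (0.545) and Havcr2 (0.408) in 3 of 4, and Ifng (1.10) and Ccl4 (0.948) were each higher in 2 of 4. Of the 11 effector factors 0 were higher in 4 of 4 libraries and 4 in 0 of 4, namely Batf (0.238), Bhlhe40 (0.324), Eomes (0.405) and Id2 (0.497). Zeb2 and Nfil3 had no UMI in the cells with Tcf7, and Tbx21 (1.06), Prdm1 (1.05) and Irf4 (1.67) were at or above the level without it. Their median ratio was 0.497.

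**Figure D5:**
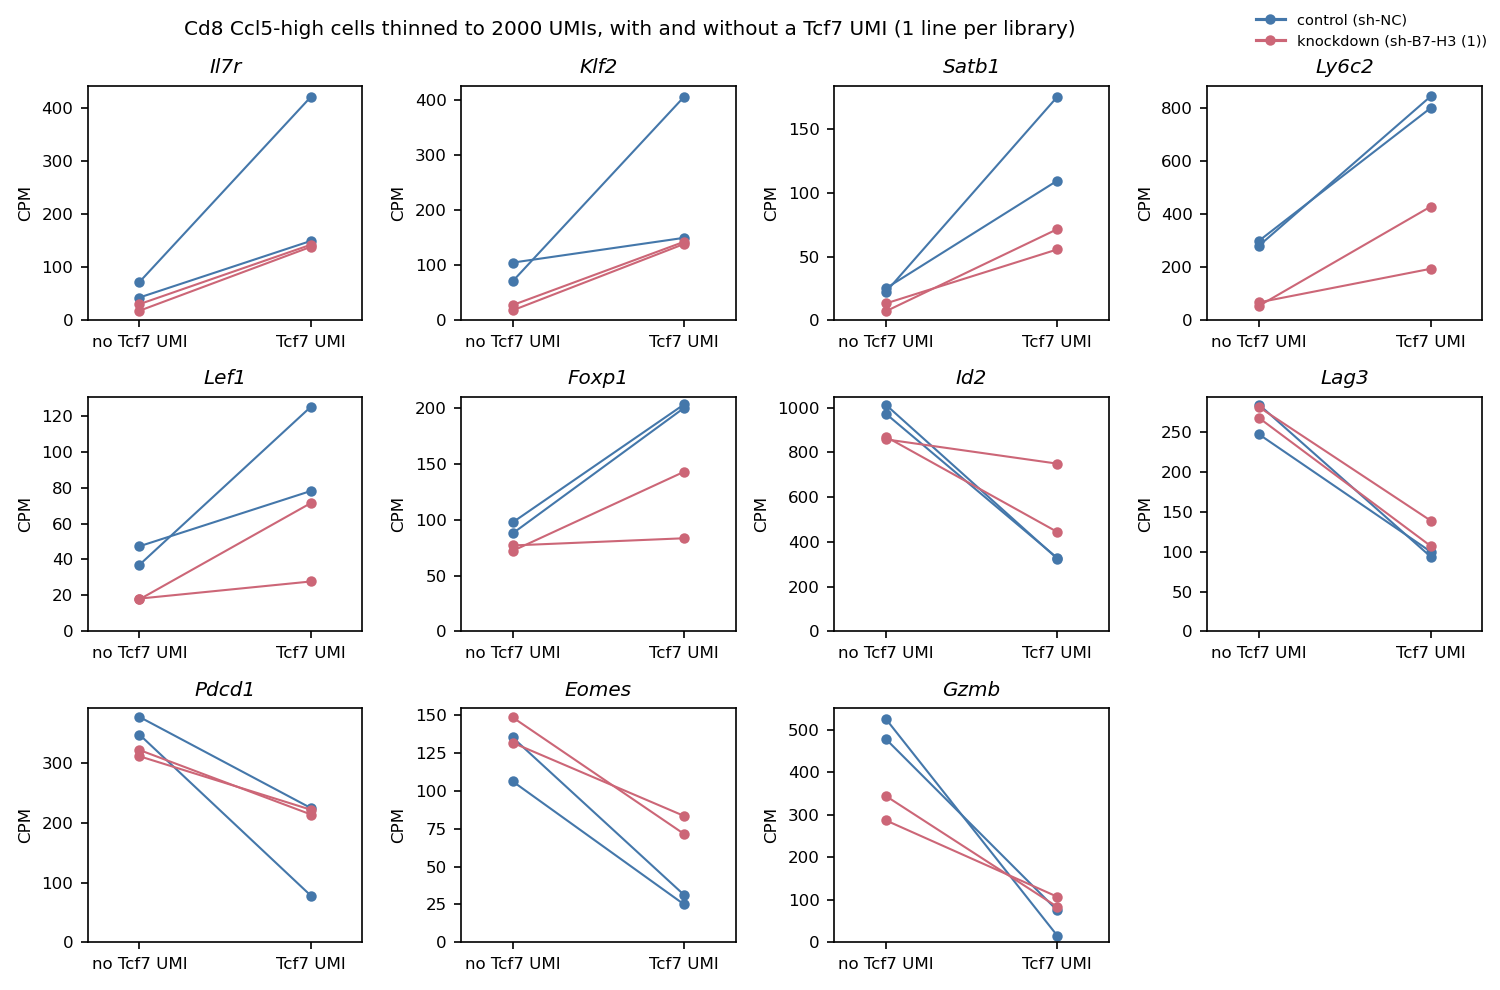
Level in CPM of 11 genes in Cd8 Ccl5-high cells without (left) and with (right) a Tcf7 UMI, after thinning to 2000 UMIs. Each line is a library, control in blue and knockdown in red. Il7r, Klf2, Satb1, Ly6c2, Lef1 and Foxp1 were higher and Id2, Lag3, Pdcd1, Eomes and Gzmb lower with Tcf7 in 4 of 4 libraries. The 11 genes are a selection, and genes not shown differed. For example, the quiescence factor gene Ets1 was lower (0.499 times) and the effector factor gene Tbx21 not lower (1.06 times) with Tcf7.

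Inside the Ccl5-low classes the RNA of some factors was higher in cells with a UMI of another, as a description at a depth of 2000 UMIs a cell. The pairs named were picked from all pairs of members, and other pairs were alike. In cells with a Tcf7 UMI, for example, Id3 was 1.01 times as high in the Cd4 and 1.00 times in the Cd8 class. In Cd4 Ccl5-low cells with a Satb1 UMI, Lef1 was 1.42 times and Tcf7 1.24 times as high as in cells without one, in 4 of 4 libraries each. The 84 Cd4 Ccl5-low cells with a Sox4 UMI had Lef1 at 582 against 287 CPM (2.03 times), Satb1 1.58 times and Tcf7 1.43 times as high, again in 4 of 4 libraries. Their shares, 2.35% in control and 3.14% in knockdown libraries, stood beside 0% and 3.75% ± 5.30 in myeloid-like cells, so some UMIs may be background. The 55 Cd8 Ccl5-low cells with a Sox4 UMI had Lef1 1.43, Satb1 1.01 and Tcf7 0.760 times as high, each higher in 2 of 4 libraries. In Cd8 Ccl5-low cells Id3 went with Myb: the 51 cells with a Myb UMI had Id3 at 424 against 92.2 CPM (4.60 times, 4 of 4 libraries). The 32 Cd4 Ccl5-low cells with a Myb UMI had Id3 at 280 against 108 CPM (2.59 times, higher in 3 of 4 libraries). Foxo1 went against Id3 in the Cd8 Ccl5-low class. Cells with an Id3 UMI had 0.715 times the Foxo1 level of cells without one, and it was lower in 4 of 4 libraries.

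Some genes around the 8 factors moved with them or against them, and others did neither. Among the receptors driven by FOXO1 and KLF2, the lymph node homing receptor gene Ccr7 had log2 differences of -5.95 ± 0.19 in Cd4 and -3.996 ± 0.10 in Cd8 cells between the Ccl5 classes. Il7r was at -4.65 ± 0.13 and -2.45 ± 0.07, and S1pr1, whose receptor guides the exit from lymph nodes, at -4.94 ± 0.15 and -2.88 ± 0.08. All of these were called lower. In the whole gates of the knockdown Ccr7 (-1.254 ± 0.06 and -1.224 ± 0.05) and Il7r (-1.237 ± 0.05 and -1.324 ± 0.04) were called lower, while S1pr1 was at -0.88 and -0.84, short of the fold limit. Of the 14 other quiescence factors 6 were lower and 1 higher in Cd4 Ccl5-high cells and 4 lower and 1 higher in Cd8 Ccl5-high cells. Over all genes 11.2% were lower and 11.8% higher in Cd4 and 8.33% and 11.0% in Cd8 cells, and the median log2 difference of the 14 was -0.88 in Cd4 and -0.07 in Cd8 cells. Klf2 fell by 4.38 and 2.82, Klf3 by 4.45 and 2.40 and Foxp1 by 2.11 and 1.49, while Gfi1 rose by 2.44 and 2.12. Of the 5 stem-like markers outside the receptors, 3 were lower and 1 higher in Cd4 and 2 lower and 2 higher in Cd8 Ccl5-high cells. Slamf6 (-3.32 and -2.11) and Bcl6 (-2.16 and -1.13) were lower and Cxcr5 (2.22 and 1.12) higher in both lineages, while Xcl1 was lower in Cd4 (-1.86) and higher in Cd8 cells (1.90).

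Of the 11 listed factors that drive effector cells 11 were higher in the Ccl5-high classes of both lineages (11.8% of all genes in Cd4 and 11.0% in Cd8 cells), with the largest differences for Eomes in Cd4 (4.95 ± 0.11) and Bhlhe40 in Cd8 cells (4.54 ± 0.11). In the knockdown 8 of 11 were higher in the whole Cd4 gate (6.91% of all genes) and 9 of 11 in the whole Cd8 gate (7.03% of all genes). Within classes 3 of 11 were higher in Cd4 Ccl5-low (221 of 10698 genes) and 3 in Cd8 Ccl5-low cells (128 genes). In Foxp3 cells 1 was higher (37 genes). In Cd4 Ccl5-high cells 0 were higher (31 genes) and 1 lower (50 genes), and in Cd8 Ccl5-high cells 0 were called (177 genes). Within Cd8 Ccl5-high cells, where Tcf7, Lef1, Satb1 and Id3 fell, the median log2 fold change of the 11 factors was 0.24. Id2, the close relative of Id3, was the only paralog called higher of the 4 tested between the Ccl5 classes (2.86 ± 0.05 in Cd4 and 3.15 ± 0.05 in Cd8 cells), and Bach1 fell by 1.04 in Cd4 cells. Of the 16 listed paralogs 12 had too few counts for these tests. Among the 8 cofactors of TCF1 and LEF1 in the files, Bcl9 (-3.79 and -3.07), Tle1 (-6.13 and -2.97) and Bcl9l (-1.60 and -1.58) were lower in Ccl5-high cells of both lineages, and Tle2 was higher in Cd4 cells (3.59 ± 0.87). The 3 E proteins, the targets of ID3, had median log2 differences of -0.15 in Cd4 and -0.35 in Cd8 cells.

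Across the 20 sums of class and library, Lef1 and Satb1 were the most alike of the members (Pearson's r of log2(CPM + 1) of 0.986), followed by Tcf7 and Lef1 (0.981), and Myb and Sox4 the least (0.473). These values describe 5 classes that differ in many genes, with 4 libraries each, and are no test. Over the 4616 genes whose mean reached 20 CPM, the patterns nearest to a member were those of Hmgn1 (0.992) and Pdlim1 (0.983) for Tcf7, Atp1b3 (0.980) and A930005H10Rik (0.979) for Lef1, and Elk4 (0.987) and S1pr1 (0.982) for Satb1. For Id3 Treml2 (0.988) was nearest, and they were for Bach2 Dgka (0.979) and Pecam1 (0.971), and for Foxo1 Dap3 (0.970) and Tesc (0.965). Myb, with Aatf (0.879) and Naa50 (0.867), and Sox4, with Ralgps2 (0.897) and Cd2ap (0.893), had the fewest UMIs and the lowest values.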

How the data were processed

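CD3-sorted cells of 4 CITE-seq libraries (2 control, 2 knockdown) were analysed. The deposited values are UMI counts that the authors made with Cell Ranger (6.1.1 in the file headers) against mm10, without normalization. Kept cells had 200 to 3000 genes and at most 5% mitochondrial UMIs. Cells above the Otsu limit of simulated doublet scores (30 principal components, 2000 genes, 2 simulated per cell) were removed, 14.3 to 18.3%. UMIs were summed per library and class (13226189 to 36182007 of the 79224898 to 132820909 RNA UMIs per library) and tested with edgeR 4.0.16 (R 4.3.3; TMM, filterByExpr): whole gates over 4 libraries, class effects over 20 sums, and class differences and interactions with the library as a block. SE is the log2 fold change over the square root of F. DESeq2 1.42.0 was an alternative. The fits were tested on simulated data with known changes. The members, lists and classes were chosen with earlier results of these data known. All 8 members are named, and at most 4 called genes per list and comparison. Genes of the Tcf7 split beyond the lists, the named pairs of members, effector sums without Ccl5, the Ccl5 bins and the limit of 2 Ccl5 UMIs were chosen after the data were seen. Gene positions are from GENCODE M21. A gene, and the comparisons and list counts that need it, are not reported here.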

Additional observations from a re-analysis of the deposited data

Results flagged for a closer look

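The knockdown effect differed between Ccl5-high and Ccl5-low Cd8 cells for 4 of the 8 factors at an adjusted p under 0.05 of edgeR's interaction test, against 2.05% of all genes. The differences of the log2 fold changes, Ccl5-high minus Ccl5-low, were -1.404 for Tcf7, -1.36 for Satb1, -1.79 for Id3 and -0.95 for Lef1. With 2 libraries a group no single library could be tested for standing apart.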

How the results depend on the processing

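Limits are the 2 libraries a group, per the labels lanes of 1 pool, and the few UMIs of Myb and Sox4 (at most 15 per library in Ccl5-high and Foxp3 cells). A further limit is that levels of Tcf7, Lef1, Satb1 and Id3 in knockdown Ccl5-high cells were of the size found in myeloid-like cells. No result changed direction with a call.

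Without a fold limit the members called were 8 in both whole gates, 3 in both Ccl5-low classes, 2 in Foxp3 cells (1.94% of all genes) and 6 between the Ccl5-low classes (28.8%). In all Cd8 cells 3 were called at up to 10% mitochondrial UMIs. In Cd4 Ccl5-low cells 1 (Myb) was called at a Ccl5 limit of 40. In Cd4 Ccl5-high cells 2 were called with no upper limit on genes and with lineage by tags, and 1 at a Ccl5 limit of 10. In Cd8 Ccl5-high cells 2 were called without doublet removal. In Foxp3 cells 0 were called without doublet removal, with the top 10% of doublet scores removed, with no upper limit on genes, at up to 10% mitochondrial UMIs, with cells thinned and with lineage by tags. Of the interactions, Cd4 high against low had 1 and Cd8 high against low 5 with no upper limit on genes, Cd8 high against low 1 without doublet removal, and Foxp3 against Cd4 Ccl5-low cells 1 with no filter on low counts and 1 with at most 2 Ccl5 UMIs. The cause was not tested. Leaving out 1 library gave 3 to 6 in all Cd8 cells, 4 to 5 in Cd8 Ccl5-high cells, 0 to 2 in Foxp3 cells, 7 to 8 between the Cd4 Ccl5 classes, 3 to 4 for the Cd8 interaction and 0 to 1 for the Foxp3 interaction (1 without control library 2). Of all such counts 291 of 320 stayed within 1.5 times, whereas 51 of 80 share differences moved by more than the SD between libraries with thinning to 1000 UMIs or none. Over all genes DESeq2 called 26 genes in Cd4 Ccl5-high cells and 70 for the Cd8 interaction, against 81 and 111 by edgeR.

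Deviations of same-numbered libraries correlated at -0.07 to 0.07 across genes. A batch that same-numbered libraries share in few genes could not be seen this way. With the replicate block the counts were 3 in all Cd4 cells, 5 in all Cd8 cells, 4 in Cd8 Ccl5-high and 1 in Foxp3 cells, as without it.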
